A study of Homo sapiens with 21 samples.

Results

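WNT ligand genes were taken by symbol from the table of raw gene counts, which gave 19 genes of 60651 in the table. The choice named 10 of them (WNT2B, WNT3, WNT4, WNT5A, WNT5B, WNT7B, WNT9A, WNT10A, WNT10B and WNT11), and the other 9 were WNT1, WNT2, WNT3A, WNT6, WNT7A, WNT8A, WNT8B, WNT9B and WNT16. After a filter on low counts over the 21 tumors, 10 genes could be judged, namely 9 of the named genes and WNT7A. WNT5A and 8 of the unnamed genes were too low to judge.

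The study asked what the oxysterols Oxy186 and Oxy210, which it describes as inhibitors of Hedgehog and WNT signaling, do to lung tumors in mice. A549-Luc2 cells, a luciferase-bearing derivative of the human lung adenocarcinoma line A549, were mixed with Matrigel and placed under the skin of the flank of female athymic nu/nu mice aged 6 to 8 weeks, a host that lacks a thymus and mature T cells. Once tumors averaged 80 to 100 mm3, the mice were split at random into groups of 10. The Control group received by daily gavage the formulation alone, a mix of DMSO, ethanol, PEG400 and corn oil, and the other groups received the same mix carrying 50 mg/kg of Oxy186 or 50 mg/kg of Oxy210. RNA-seq counts were analysed for 7 tumors per group, and every tumor came from the same single cell line. The study's own comparison kept Oxy186 tumors r1 to r4, a subset it picked from a principal component plot of these same data, so values for r1 to r4 are given here as a description of those tumors and their p-values are not a test of Oxy186.

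WNT ligands are lipid-modified secreted glycoproteins. They are acylated by PORCN, carried to the cell surface by WLS and bind Frizzled receptors. Together with the co-receptors LRP5 and LRP6 they stabilize β-catenin, which switches on target genes with TCF factors, whereas other ligands act through ROR or RYK receptors on cell shape and movement without β-catenin. In the lung, WNT7B is made by the developing airway epithelium, and WNT2 and WNT2B from the mesoderm specify the lung bud.

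The libraries held 13787493 to 17865119 counts each, and the epithelial markers of the cancer cells were high in every tumor, with summed CPM (read counts scaled to a common library total) of 6976 to 16153. The host cells are mouse, so markers of other cell types are counts on human genes and not human stroma. Whether these counts came from the cancer cells or from mouse reads was not tested. Fibroblast markers summed to 77.0 to 261 CPM, mostly from LUM at 566 to 3348 counts and COL1A1 at 256 to 1031 counts. POSTN was at 0 counts in every tumor and COL1A2 at 0 to 1. Endothelial markers summed to 1.81 to 6.78 CPM and leukocyte markers to 12.3 to 32.2 CPM. The libraries differed in how counts depended on the GC content of a gene's exons. Expressed as the change in log2 CPM per 10 points of GC, this GC slope was -0.51 to -0.18 in Oxy186 r1 to r4, 0.08 to 0.49 in Oxy186 r5 to r7, -0.15 to 0.40 in Control and -0.33 to 0.26 in Oxy210. Because whole tumors were sequenced, fewer cancer cells making a transcript and less transcript per cancer cell cannot be told apart.

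On GRCh38, by the GENCODE annotation, WNT7B spans chr22:45920366-45977162 on the minus strand, WNT3 chr17:46762506-46833154 on the minus strand and WNT9A chr1:227918656-227947932 on the minus strand. Several ligand genes sit in pairs. WNT3 and WNT9B are 46 bases apart on opposite strands, WNT10B and WNT1 6586 bases apart on opposite strands, WNT6 and WNT10A 6618 bases apart on the same strand and WNT9A and WNT3A 59065 bases apart on opposite strands. Of the closest pair, WNT3 had 281 to 466 counts per tumor and WNT9B 0 to 5.

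Of the 19 genes, 16 had an entry in the RefSeq promoter table for GRCh38.p14, and WNT7B, WNT10B and WNT11 had none. The 250 bases before the transcription start are shown for genes chosen by their levels. WNT3 was the ligand gene with the steadiest level, and WNT9A in Oxy186 r1 to r4 was below every Control tumor. WNT5B had the log2 fold change furthest above 0 of the judged genes in those tumors. The windows are written 5′ to 3′ on the gene's strand, with each GC box core, GGGCGG on either strand, in capitals. WNT3 is chr17:46818693-46818942 on the minus strand, inside the GENCODE span of the gene, WNT9A is chr1:227947933-227948182 on the minus strand and WNT5B is chr12:1616806-1617055 on the plus strand, the first of its 2 entries.
WNT3: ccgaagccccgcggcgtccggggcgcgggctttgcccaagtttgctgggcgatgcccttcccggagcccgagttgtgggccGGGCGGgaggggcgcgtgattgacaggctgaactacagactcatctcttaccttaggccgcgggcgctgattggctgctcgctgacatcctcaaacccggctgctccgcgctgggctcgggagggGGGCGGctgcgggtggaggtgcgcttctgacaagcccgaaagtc
WNT9A: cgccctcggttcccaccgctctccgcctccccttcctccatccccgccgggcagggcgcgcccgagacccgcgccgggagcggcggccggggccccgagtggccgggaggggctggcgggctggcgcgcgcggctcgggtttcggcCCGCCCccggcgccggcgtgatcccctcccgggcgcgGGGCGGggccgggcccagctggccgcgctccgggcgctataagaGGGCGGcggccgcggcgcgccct
WNT5B: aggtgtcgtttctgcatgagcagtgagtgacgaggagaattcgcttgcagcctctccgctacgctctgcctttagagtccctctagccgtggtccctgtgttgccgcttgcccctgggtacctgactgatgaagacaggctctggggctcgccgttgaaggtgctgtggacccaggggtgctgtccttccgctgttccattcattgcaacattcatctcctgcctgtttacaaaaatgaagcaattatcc
The WNT9A window had a GC content of 84.4% and 3 GC boxes, the WNT3 window 68.8% and 2, and the WNT5B window 54.8% and 0. The second WNT5B entry, chr12:1628981-1629230, had a GC content of 50.8% and 2 GC boxes. The windows shown do not stand for the family. WNT4, at a log2 fold change of 0.07 in Oxy186 r1 to r4, had 86.8% and 9 GC boxes. The WNT2B entries, with a log2 fold change of 0.04 in those tumors, had 60.4% with 0 boxes and 80.0% with 4. A link of promoter GC content to fold change was not tested. The median over 35116 promoter windows of this length was 58.0%, and 42.6% of them held a GC box. The binding motif of GLI factors, GACCACCCA, was found on neither strand of any ligand promoter in the table and in 0.199% of all windows. The TCF motif letters CTTTGAA and CTTTGAT were likewise found in no ligand promoter, against 3.80% and 2.26% of all windows. No match says only that these letters are not in these windows.

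Levels were compared between genes as CPM per kilobase of exon, since a longer transcript gives more reads. WNT7B was highest, at 6.96 ± 2.98 (SD, n = 21), followed by WNT3 at 4.32 ± 0.483 and WNT9A at 2.06 ± 0.717 CPM per kb. WNT7B and WNT3 overlapped across tumors, and so did WNT9A and WNT3 at their edges (highest WNT9A tumor 3.32, lowest WNT3 tumor 3.25 CPM per kb). The next 5 genes lay close together, at 0.747 ± 0.412 for WNT10B, 0.639 ± 0.269 for WNT7A, 0.552 ± 0.202 for WNT5B, 0.484 ± 0.334 for WNT10A and 0.474 ± 0.219 for WNT11, and each of these neighbors differed by less than 1 SD. WNT2B at 0.293 ± 0.0957 and WNT4 at 0.288 ± 0.122 CPM per kb came last among the judged genes on this scale. The scale divides by all annotated exon bases of a gene, which were 12374 for WNT2B. By CPM alone WNT2B averaged 3.63, above WNT7A at 2.89 and WNT5B at 2.34. Part of the WNT2B level is uncertain, because 21.5% of its exon bases are shared with ST7L on the opposite strand and whether the counting used strand is not given in the sources used here. The same holds for 8.60% of the WNT11 exon bases.

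**Figure D1:**
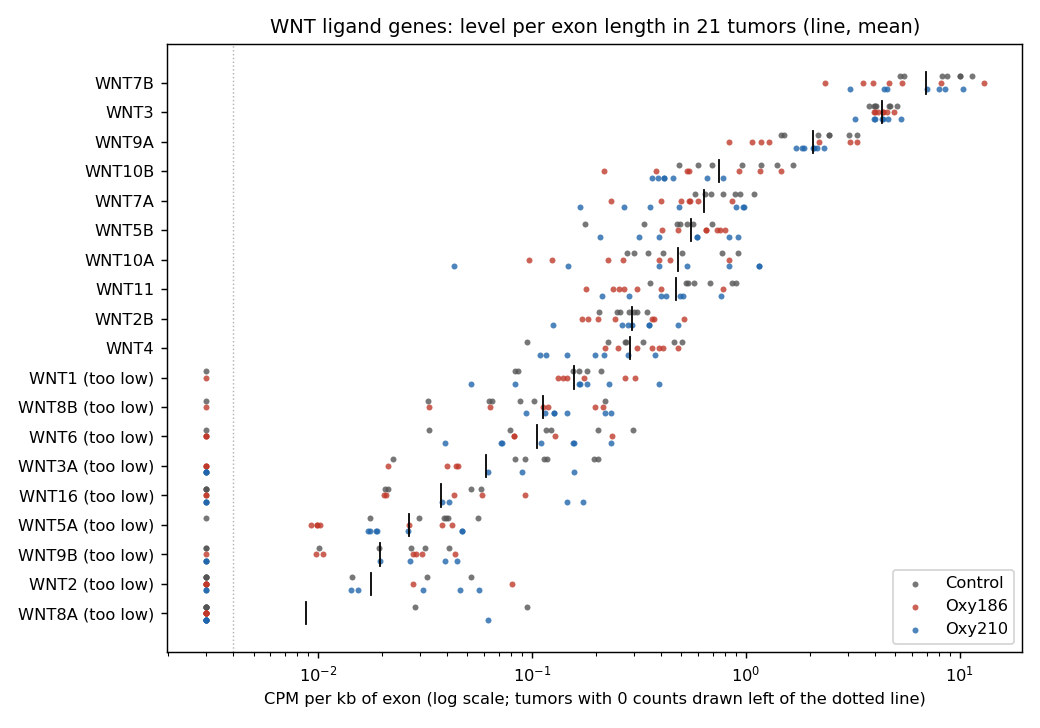
Level of each of the 19 WNT ligand genes in CPM per kb of exon, on a log axis, with 1 point per tumor colored by group and a line at the mean of the 21 tumors; tumors with 0 counts are drawn left of the dotted line. WNT7B, WNT3 and WNT9A sit above the other genes, and the 9 genes marked too low include WNT5A with 0 to 6 counts per tumor.

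WNT5A, the prototype ligand of β-catenin-independent signaling, had 0 to 6 counts per tumor with a median of 3, and in 1 tumor it was at 0. WNT3A, a classical β-catenin ligand, had 0 to 9 counts, and WNT1, the founding member of the family, 0 to 14. WNT8A was at 0 in 18 tumors and WNT2 at 0 in 11. At this depth no group difference could be judged for these genes. The counts are of human alignments alone, so they say nothing of the same ligands made by mouse host cells. Just inside the filter were WNT11, with 6 to 34 counts and a median of 15, and WNT10A, with 2 to 50 and a median of 17. Just outside was WNT1, with a median of 6.

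Summed over the 19 genes per exon length, human ligand transcripts came to 9.99 to 25.9 CPM per kb in a tumor. Only human alignments were counted, so any WNT transcripts of the mouse host cells are outside this sum. WNT7B made up 38.4% ± 8.35 of this sum (SD, n = 21), WNT3 26.2% ± 6.76 and WNT9A 11.9% ± 3.42. In Control tumors the sum ran from 15.0 to 24.2 with a median of 20.03, in Oxy186 tumors from 9.99 to 25.9 with a median of 13.7 and in Oxy210 tumors from 11.2 to 22.1 with a median of 16.6 CPM per kb. The ratio of WNT7B to WNT3 per length was 1.31 to 2.41 in Control, 0.5676 to 1.22 in Oxy186 r1 to r4, 1.17 to 2.61 in Oxy186 r5 to r7 and 0.773 to 2.39 in Oxy210. The ratio was under 1, with WNT3 ahead of WNT7B, in Oxy186 r1, r3 and r4 and in Oxy210 r4, r5 and r7. It was under 1 in no Control tumor. The tumors under 1 had GC slopes of -0.51 to -0.10. Control r7, Oxy186 r2 and Oxy210 r6 also had negative slopes, of -0.15, -0.18 and -0.13, with ratios of 1.31, 1.22 and 2.17. Exon GC content is 64.7% for WNT7B and 53.1% for WNT3, and the part of the slope in the ratio was not tested.

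**Figure D2:**
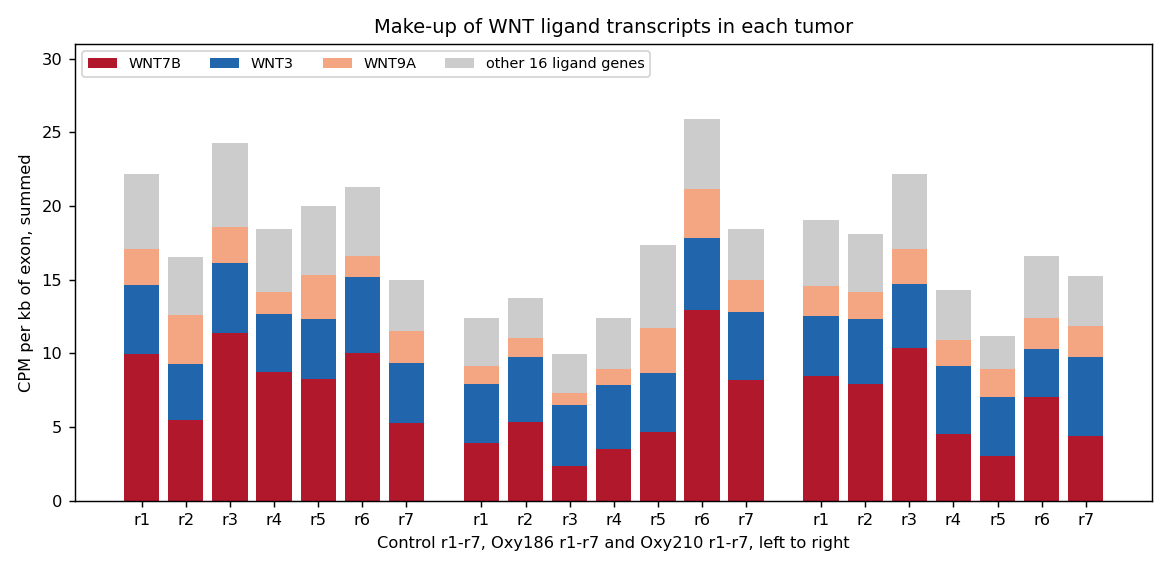
Stacked bars of WNT ligand transcripts in each of the 21 tumors, in CPM per kb of exon summed over the 19 genes, for Control, Oxy186 and Oxy210 r1 to r7 from left to right. The WNT3 segment keeps a similar height across tumors (3.25 to 5.31 CPM per kb) and the WNT7B segment varies from 2.35 to 12.9.

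WNT3, a β-catenin ligand of the intestinal stem cell niche, was the steadiest ligand gene, with a 1.63-fold range over the 21 tumors. Its lowest, median and highest levels were 20.3, 21.8 and 27.5 CPM in Control, 21.5, 23.6 and 26.7 CPM in Oxy186 and 17.5, 23.4 and 28.6 CPM in Oxy210. The groups overlapped almost fully. The log2 fold change to Control was -0.01 ± 0.11 (SE) for Oxy186, with a 95% interval of -0.25 to 0.22, and 0.00 ± 0.11 for Oxy210, with an interval of -0.24 to 0.24. These intervals are the narrowest of the 10 genes, and the sign of such small values flipped with the scaling.

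WNT7B, the ligand made by lung epithelium, was the most abundant and also varied 5.49-fold. It ranged from 26.8 to 58.0 CPM in Control with a median of 44.2, from 11.96 to 65.6 CPM in Oxy186 with a median of 23.7, and from 15.6 to 52.7 CPM in Oxy210 with a median of 35.8. Within Oxy186, r1 to r4 had 19.97, 27.2, 11.96 and 17.9 CPM and r5 to r7 had 23.7, 65.6 and 41.6 CPM, so the treated group held both the lowest and the highest tumor of all 21. The log2 fold change to Control was -0.55 ± 0.31 for Oxy186 and -0.35 ± 0.23 for Oxy210, neither past the test. The lowest Oxy210 tumor, r5 at 15.6 CPM, also had the lowest GC slope of its group at -0.33. The highest Oxy186 tumor, r6, had the highest slope of all at 0.49. In Control, the lowest tumor, r7 at 26.8 CPM, had a slope of -0.15, and the highest, r3 at 58.0 CPM, had 0.29. Control r2 and r6, with close slopes of 0.08 and 0.02, had 27.9 and 51.1 CPM. The part of the slope in the WNT7B level was not tested. With each library's GC dependence entered as an offset, the log2 fold change was -0.11 ± 0.16 for Oxy186 and -0.10 ± 0.15 for Oxy210.

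WNT7A, the close relative of WNT7B that also acts on blood vessels of the brain, was not among the named genes. Its levels were 2.62 to 4.93 CPM in Control with a median of 3.56, and 1.06 to 3.89 CPM in Oxy186 with a median of 2.45. In Oxy210, r1 to r3 had 4.09, 4.4 and 4.43 CPM, while r4 to r7 had 1.22, 0.757, 1.62 and 2.21 CPM, all 4 below the lowest Control tumor. Those 4 tumors also had GC slopes of -0.33 to -0.10 and epithelial marker sums of 6976 to 9063 CPM, against slopes of 0.10 to 0.26 and sums of 10355 to 13407 CPM in r1 to r3, and the part of these in the WNT7A level was not tested. In Oxy186, 5 of 7 tumors were below the lowest Control tumor, with a log2 fold change of -0.63 ± 0.24 that did not pass the adjusted test.

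WNT9A, a ligand with a role in joint formation, had 5.83 to 13.3 CPM in Control with a median of 9.77. Oxy186 r1 to r4 had 4.71, 5.15, 3.33 and 4.28 CPM, below every Control tumor, and r5 to r7 had 12.3, 13.3 and 8.79 CPM, inside the Control range. Oxy210 tumors were closely spaced, from 6.85 to 9.34 CPM with a median of 8.26, and all 7 were below the Control median. The log2 fold change to Control was -0.36 ± 0.31 for all 7 Oxy186 tumors and -0.21 ± 0.18 for Oxy210.

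WNT10B, known for promoting bone formation and holding back fat cell differentiation, was at 1.27 to 4.31 CPM in Control with a median of 2.5 and at 0.566 to 3.81 CPM in Oxy186 with a median of 1.405. In Oxy210 it ranged from 0.949 to 2.03 CPM with a median of 1.08. Of the 7 Oxy210 tumors, 5 were below the lowest Control tumor and all 7 were below the Control median. WNT10A, a ligand of teeth and skin appendages, was the most variable judged gene, with 0.811 to 2.68 CPM in Control, 0.283 to 2.45 in Oxy186 and 0.126 to 3.36 in Oxy210, a 26.6-fold range over all tumors that rests on 2 to 50 counts.

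WNT11, which guides cell movements in the embryo and branching of the kidney duct, had 0.845 to 2.13 CPM in Control with a median of 1.35. Oxy186 r1 to r4 had 0.603, 0.423, 0.566 and 0.638 CPM, below every Control tumor, and r5 to r7 had 1.85, 0.952 and 0.733 CPM. Oxy210 tumors had 0.505 to 1.81 CPM with a median of 1.01. WNT5B, a relative of WNT5A with a role in cartilage, went the other way in its medians, with 2.09 CPM in Control, 2.76 in Oxy186 and 2.49 in Oxy210. Its Control range of 0.753 to 2.95 CPM overlapped the Oxy186 range of 1.72 to 3.40 and the Oxy210 range of 0.884 to 3.90.

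WNT4, needed for kidney tubules and the female reproductive tract, had 0.439 to 2.33 CPM in Control, 1.02 to 2.25 in Oxy186 and 0.505 to 1.75 in Oxy210. Its medians were 1.28, 1.69 and 0.921 CPM. WNT2B, a ligand of lung specification, had 2.55 to 4.27 CPM in Control, 2.12 to 6.35 in Oxy186 and 1.54 to 5.97 in Oxy210, with medians of 3.51, 3.04 and 3.63 CPM. The Control tumors were the most closely spaced for WNT2B, and both treated groups extended beyond them on either side.

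**Figure D3:**
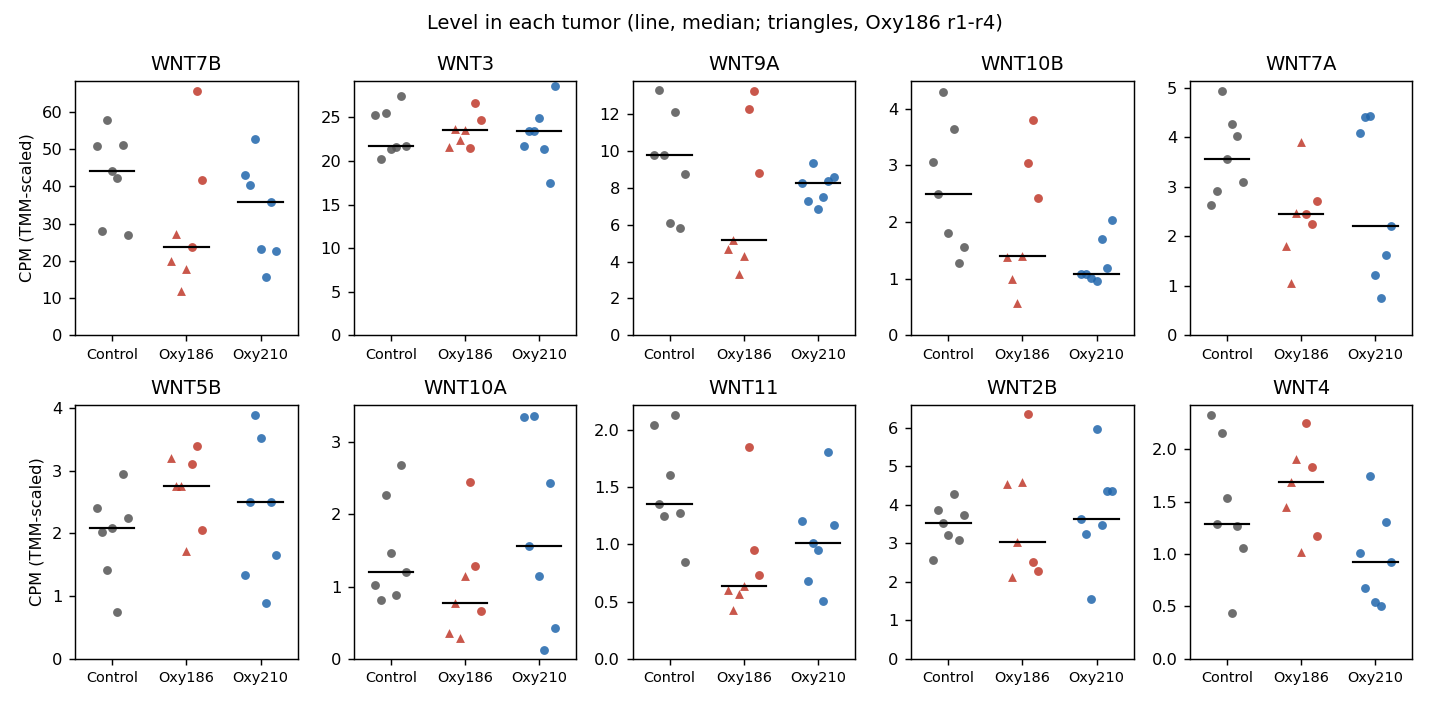
Level of the 10 judged WNT ligand genes in each tumor in TMM-scaled CPM, with all axes starting at 0, a line at each group's median and triangles for Oxy186 r1 to r4. The triangles lie below every Control tumor for WNT9A and WNT11, and the groups lie on top of each other for WNT3.

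In Oxy186 against Control, with 7 tumors each, none of the 10 judged ligand genes passed a fold change over 2 with an adjusted p at or under 0.05, and the same was true of all 16291 genes tested (0% called). At an unadjusted p under 0.05 the count was 2 of 10 ligand genes, against 618 genes or 3.79% of all tested. These were WNT11, with a log2 fold change of -0.87 ± 0.32 (SE) and an edgeR p of 0.0146 (adjusted p = 0.862), and WNT7A, at -0.63 ± 0.24 with an edgeR p of 0.0184 (adjusted p = 0.862). DESeq2 and limma voom also called 0 genes here. The median log2 fold change of the 10 genes was -0.40, against -0.01 over all genes tested, and with GC offsets it was -0.13 against 0.01. With those offsets WNT11 was at -0.45 ± 0.29 and WNT7A at -0.46 ± 0.26, while WNT5B was at 0.73 ± 0.29 (edgeR adjusted p = 0.842).

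In Oxy210 against Control, which shares the Control tumors with the preceding comparison, again 0 of 10 ligand genes and 0% of 16396 genes passed both thresholds. WNT10B alone had an unadjusted p under 0.05, where 2270 genes or 13.8% of all tested did. Its log2 fold change was -0.98 ± 0.29, with a 95% interval of -1.58 to -0.38, an edgeR p of 0.00302 and an adjusted p of 0.247. With GC offsets it was -0.75 ± 0.29 (edgeR adjusted p = 0.269). The median of the 10 genes was -0.28, against 0.01 over all genes, and -0.06 with GC offsets. DESeq2 called 22 genes in this comparison, none of them a WNT ligand, and limma voom called 0.

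The compounds, both at 50 mg/kg, were compared directly as 1 pair. In Oxy186 against Oxy210 0 of 10 ligand genes and 0% of 16361 genes passed both thresholds, and 1 of 10 ligand genes had an unadjusted p under 0.05, against 664 genes or 4.06% of all. This was WNT4, higher in Oxy186 by a log2 fold change of 0.74 ± 0.29, with a 95% interval of 0.13 to 1.36, an edgeR p of 0.0213 and an adjusted p of 1.00. All 7 Oxy186 tumors were above the Oxy210 median for WNT4, and 5 of 7 Oxy210 tumors were below the lowest Oxy186 tumor. For WNT3 the interval of the difference was -0.23 to 0.26, for WNT9A -0.71 to 0.45, for WNT7B -0.87 to 0.53 and for WNT10A -2.00 to 0.35, so that differences of more than 2-fold lie outside the first 3 and inside the last. DESeq2 and limma voom called 0 genes as well, though DESeq2 gave no adjusted p for the judged ligand genes other than WNT7B. A p that misses the threshold does not show that the compounds act alike.

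**Figure D4:**
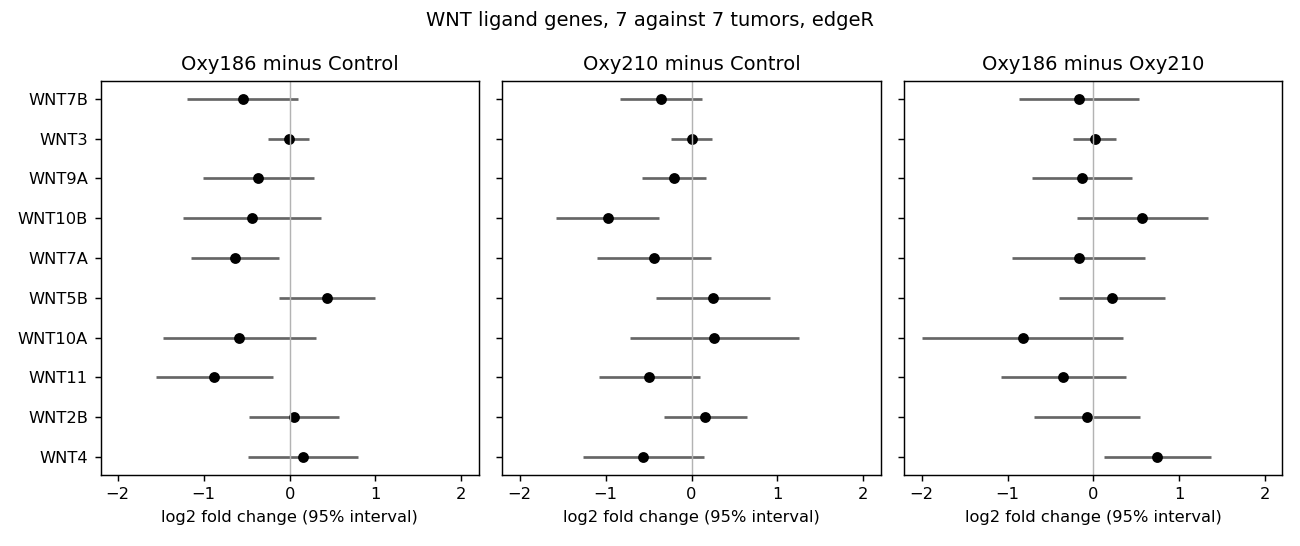
Log2 fold change of the 10 judged WNT ligand genes with its 95% interval in the 3 comparisons of 7 against 7 tumors by edgeR. WNT3 has the narrowest interval in each panel, and the intervals that leave out 0 are those of WNT11 and WNT7A in Oxy186 against Control, WNT10B in Oxy210 against Control and WNT4 in Oxy186 against Oxy210.

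In Oxy186 r1 to r4 against the 7 Control tumors, 4 of 10 judged ligand genes passed both thresholds, all lower, against 1406 genes or 8.34% of the 16852 tested. At an unadjusted p under 0.05 it was 6 of 10, against 34.7% of all genes, and at an adjusted p at or under 0.05 alone 4 lower and 0 higher, against 15.0% lower and 4.73% higher. WNT7B was lower by a log2 fold change of -1.16 ± 0.24 (SE, edgeR adjusted p = 0.00473) and WNT9A by -1.11 ± 0.25 (edgeR adjusted p = 0.00671). WNT11 was lower by -1.41 ± 0.34 (edgeR adjusted p = 0.00929) and WNT10B by -1.25 ± 0.38 (edgeR adjusted p = 0.0327). The WNT10B call was lost without r2, r3 or r4, with log2 fold changes of -1.20, -1.04 and -1.34 and edgeR adjusted p of 0.0664, 0.107 and 0.0581. Without r3, WNT7B and WNT9A both fell just short of the 2-fold threshold at -0.99, with edgeR adjusted p of 0.0213 and 0.0312, which left WNT11 as the 1 ligand gene called.

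Among the other judged genes, WNT10A was at -1.19 ± 0.46 (edgeR adjusted p = 0.0761), WNT7A at -0.65 ± 0.31 and WNT5B at 0.39 ± 0.32. WNT3, WNT2B and WNT4 were at -0.04 ± 0.13, 0.04 ± 0.24 and 0.07 ± 0.37. All 4 tumors were below every Control tumor for WNT9A and WNT11, which is 2 of 10 genes against 8.41% of all genes tested, and above every Control tumor for 0 of 10 against 3.23%. The study singled out the basal cell carcinoma pathway, which holds WNT ligand genes, on these same tumors, so the direction of these counts is not independent evidence.

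Exon GC content of the 4 genes called lower was 64.7% for WNT7B, 62.3% for WNT11, 59.7% for WNT9A and 58.7% for WNT10B. It was 53.1% for WNT3 and 45.7% for WNT2B. WNT10A at 62.2% had a log2 fold change of -1.19 and was not called. WNT4 at 58.0% and WNT5B at 58.5% had nearly the same GC content as WNT10B and were not lower. When each library's GC dependence was entered as an offset in the fit, 0 of 10 ligand genes passed, against 683 genes or 4.05% of all at an adjusted p at or under 0.05. WNT7B was then at -0.01 ± 0.17, WNT9A at -0.43 ± 0.25, WNT11 at -0.44 ± 0.33 and WNT10B at -0.61 ± 0.34 (edgeR adjusted p = 0.987, 0.368, 0.5001 and 0.362). WNT5B was at 0.96 ± 0.32 (edgeR adjusted p = 0.114) and WNT4 at 0.67 ± 0.33 (edgeR adjusted p = 0.296). The median of the 10 genes was -0.88 without and -0.18 with the offsets, against 0.01 over all genes in both fits. The GC slopes of r1 to r4 (-0.51 to -0.18) all lay below those of Control (-0.15 to 0.40), and the offsets were fitted on these same counts. A change in these tumors that follows GC content and a difference between libraries therefore cannot be told apart.

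**Figure D5:**
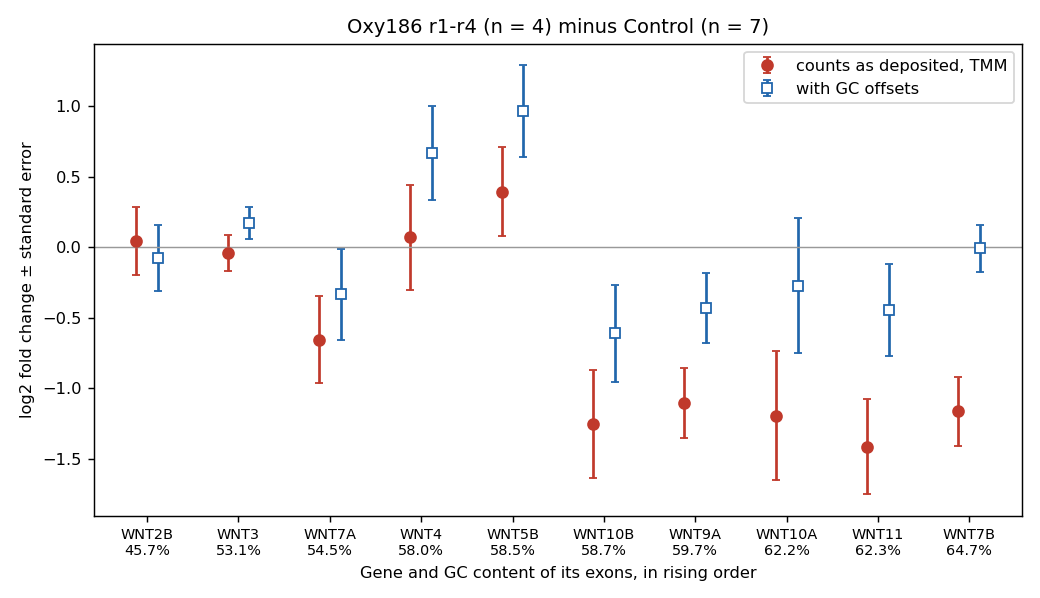
Log2 fold change ± SE of the 10 judged WNT ligand genes in Oxy186 r1 to r4 (n = 4) against Control (n = 7), from counts as deposited with TMM (filled) and with GC offsets (open), in order of exon GC content. WNT7B, at 64.7% GC, moves from -1.16 to -0.01, and WNT2B, at 45.7%, from 0.04 to -0.08.

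The genes whose log2 CPM tracked the leading ligands most closely over the 21 tumors, after subtraction of the group means, were named among 16989 genes as a description. For WNT7B they were ZC3H3, SCAP and TLNRD1, each with Pearson's r of 0.96. For WNT9A they were KDM4B at 0.95, NAB2 at 0.93 and CNTNAP3C at 0.93. WNT3 had no such close match, the highest being C19orf12 at 0.76, SCPEP1 at 0.73 and DHRS2 at 0.71. The tumors share their library GC slopes and depth in these values.

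In the machinery that makes and releases WNT proteins, 11 genes were listed, and 0 passed an adjusted p at or under 0.05 in any comparison of 7 against 7 tumors by edgeR. At an unadjusted p under 0.05 there were 3 of 10 tested in Oxy186 and 1 of 11 in Oxy210 against Control, and 1 of 11 between the compounds, beside 3.79%, 13.8% and 4.06% of all genes. In Oxy186 r1 to r4, 1 was lower and 3 were higher of 11 tested at an adjusted p at or under 0.05, beside 15.0% lower and 4.73% higher over all genes, and 0 and 1 with GC offsets, beside 4.05% in either direction. The cargo receptors TMED2 and TMED10, which carry WNT proteins out of the endoplasmic reticulum, were the most abundant, at 117 and 67.4 CPM per kb. VPS26A, a retromer subunit that recycles WLS, was higher by a log2 fold change of 0.64 ± 0.13 in r1 to r4 (edgeR adjusted p = 0.00354) and by 0.41 with GC offsets (edgeR adjusted p = 0.0301). PORCN, the acyltransferase that WNT proteins need for release, was at -0.44 ± 0.15 in Oxy210 (edgeR adjusted p = 0.286).

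Extracellular antagonists were tested for 7 of 17 listed genes in each comparison of 7 against 7 tumors, and 0 passed by edgeR. Also at an unadjusted p under 0.05 it was 0, beside 3.79%, 13.8% and 4.06% of all genes in Oxy186, in Oxy210 and between the compounds. DKK1, which blocks LRP5 and LRP6, was by far the most abundant at 90.7 ± 19.5 CPM per kb (SD, n = 21), above every ligand gene on the same scale. Its log2 fold change was 0.02 ± 0.17 in Oxy186 and 0.14 ± 0.15 in Oxy210. In r1 to r4, 3 of 8 tested were lower, beside 15.0% of all genes, and 1 with GC offsets, beside 4.05% in either direction. NBL1, a listed DAN family member known mainly as a BMP antagonist, was lower by -2.17 ± 0.33 (edgeR adjusted p = 0.000902). With GC offsets it was lower by -1.27 (edgeR adjusted p = 0.00438).

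Of 18 listed receptors and co-receptors, 0 of the 15 or 16 tested passed by edgeR in the comparisons of 7 against 7. At an unadjusted p under 0.05 there were 1, 1 and 0 in Oxy186, in Oxy210 and between the compounds. The shares over all genes were 3.79%, 13.8% and 4.06%. In r1 to r4 3 of 16 were lower, close to the 15.0% of all genes, with 0 left with GC offsets. FZD6 and LRP5 were the most abundant, at 16.2 and 15.9 CPM per kb. LRP5, the co-receptor for β-catenin signaling, was lower by -0.68 ± 0.23 in r1 to r4 (edgeR adjusted p = 0.0453) and at 0.28 with GC offsets (edgeR adjusted p = 0.395). FZD9, at only 0.248 CPM per kb, was lower by -3.40 ± 0.59 (edgeR adjusted p = 0.00164) and at -1.90 with GC offsets (edgeR adjusted p = 0.0593). FZD2 was lower by -0.72 ± 0.21 (edgeR adjusted p = 0.0252) and at -0.34 with GC offsets (edgeR adjusted p = 0.239). The R-spondin axis strengthens WNT signals by protecting Frizzled receptors. Of its genes, 0 of 5 tested passed by edgeR in each comparison of 7 against 7 tumors. LGR6 in Oxy210, at -0.74 ± 0.28, was the 1 with an unadjusted p under 0.05, beside 13.8% of all genes in that comparison. LGR6, a receptor for R-spondins, was the 1 lower gene of 5 in r1 to r4, beside 15.0% of all genes, at -1.57 ± 0.36 (edgeR adjusted p = 0.00745), with 0 left with GC offsets.

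Among 12 intracellular transducers, 0 passed by edgeR in the comparisons of 7 against 7. APC in Oxy210, at 0.33 ± 0.14, was the 1 with an unadjusted p under 0.05, beside 13.8% of all genes in that comparison. In r1 to r4 4 were lower and 1 was higher, beside 15.0% and 4.73% of all genes, and 1 and 1 with GC offsets, beside 4.05% in either direction. CSNK1E, a kinase that works with Dishevelled, was lower by -1.34 ± 0.19 (edgeR adjusted p = 0.000782) and by -0.72 with GC offsets (edgeR adjusted p = 0.0139). DVL1, one of the Dishevelled genes and 67.4% GC, was lower by -1.19 ± 0.22 (edgeR adjusted p = 0.00229) and at 0.23 with GC offsets (edgeR adjusted p = 0.325). CTNNB1, which encodes β-catenin, was at 0.04 ± 0.14 in Oxy186, 0.10 ± 0.11 in Oxy210 and 0.13 ± 0.14 in r1 to r4.

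Of 9 listed target genes 7 were tested, and 0 passed by edgeR in the comparisons of 7 against 7. NKD1 in Oxy210, at 0.87 ± 0.38, was the 1 with an unadjusted p under 0.05, beside 13.8% of all genes in that comparison. Its level was low, at 0.0743 CPM per kb. In r1 to r4 NKD2, a feedback inhibitor that binds Dishevelled, was the 1 lower gene of 7, close to the 15.0% of all genes, at -1.29 ± 0.23 (edgeR adjusted p = 0.00189), and it was at 0.14 with GC offsets (edgeR adjusted p = 0.736). CCND1 and MYC, the most abundant of the list at 60.2 and 10.7 CPM per kb, were at -0.15 ± 0.17 and -0.09 ± 0.19 in r1 to r4 and at -0.19 ± 0.16 and -0.10 ± 0.20 in all 7 Oxy186 tumors, none past the test.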

How the data were processed

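RNA was sequenced from 21 A549-Luc2 xenograft tumors, 7 per group, grouped by the labels. Per the submitters' processing notes, the authors trimmed reads with Trimmomatic 0.39, aligned them with STAR 2.7.6a to GRCh38.p13 joined with the mouse build GRCm39, kept the human alignments and counted uniquely mapped reads per human gene with featureCounts (Subread 2.0.1). The deposited counts are raw read counts per gene. The authors also deposited log2 CPM values for Oxy186 r1 to r4 and Control, made with edgeR's filter and TMM scaling. Recomputing these from the counts matched all 16852 genes to within 4.97e-14, and they were otherwise not used.

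From the counts, edgeR 4.0.16 (R 4.3.3) with filterByExpr (minimum count 10), TMM and a quasi-likelihood test was run in each comparison, with Benjamini-Hochberg adjustment over all genes tested. Genes were called at adjusted p ≤ 0.05 with more than a 2-fold change, the thresholds of the study. A gene was too low to judge where it failed the filter over the 21 tumors. Standard errors and 95% intervals come from the same fits. GC offsets were per-library spline fits (4 degrees of freedom) on exon GC content from GENCODE on GRCh38, which 99.6% of genes had. Alternatives were limma voom (limma 3.58.1), DESeq2 1.42.0, other scalings and filters, all 21 libraries in one fit, GC offsets, a replicate block and leaving out each of r1 to r4.

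Scripts were tested on simulated data. All 21 columns mapped to samples, and 0 were left unmapped. The most similar pair of libraries had a chi-square of 10.9 for each degree of freedom, far above the value of 1 that sampling alone would give, so each counted as 1 tumor. The labels do not say which mouse each tumor came from, so p-values measure the spread between these tumors. Named genes were all WNT ligand genes, and from each pathway list the 2 most abundant and the 2 with the smallest p, of which the main ones are printed. The members and lists were chosen with earlier results of these data known. Promoter sequences are RefSeq, GRCh38.p14. Counting error adds to the spread between tumors for low genes, and the total counts per library were alike.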

Additional observations from a re-analysis of the deposited data

How the results depend on the processing

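No WNT ligand gene was called in any comparison of 7 against 7 tumors under any alternative run. In Oxy186 against Oxy210, DESeq2 gave no adjusted p for the judged ligand genes other than WNT7B, so those genes could not be called there. Over all genes, Oxy210 against Control gave 22 calls with DESeq2, 7 without a filter and 1 with the replicate block, and Oxy186 against Oxy210 gave 1 call without a filter, with all 21 libraries in one fit, with GC offsets and with the replicate block plus GC offsets. In Oxy186 r1 to r4 against Control, 1406 calls became 202 with GC offsets, 62 with the replicate block plus GC offsets and 3323 by adjusted p alone, and ran from 997 to 1604 when 1 of r1 to r4 was left out. The 4 ligand calls became 2 with at least 10 counts in every library, where fewer ligand genes were tested, 0 with GC offsets, 0 with the block plus GC offsets, and 1 to 4 when 1 tumor was left out (1 without r3). WNT10B missed the adjusted threshold with limma voom (limma adjusted p = 0.0528), and WNT10A passed it with DESeq2 (adjusted p = 0.0481). The cause of these changes was not tested.

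The replicate numbers were no evidence of pairing: 4 of 21 same-number pairs correlated above 0.1 (range -0.40 to 0.33), and 1 of 21 tumors correlated best with its own number. With the replicate block alone, 3 ligand genes and 1635 genes were called in r1 to r4, and 0 genes in Oxy186 against Control.

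The following log2 fold changes changed sign. WNT3 in Oxy186 was 0.0125 (DESeq2), 0.0131 (RLE), 0.0212 (library size alone), 0.00437 (at least 10 counts), 0.00611 (all 21), 0.0933 (GC offsets) and 0.0973 (block plus GC offsets). WNT3 in Oxy210 was -0.00558 (limma voom), -0.00547 (DESeq2), -0.00535 (RLE), -0.00778 (no filter), -0.00391 (at least 10 counts), -0.0200 (all 21) and -0.00356 (block), and in Oxy186 against Oxy210 -0.0308 (library size alone). WNT2B in Oxy186 was -0.0283 (limma voom), -0.0311 (block) and -0.0697 (block plus GC offsets). In Oxy210, WNT9A was 0.0346 (block plus GC offsets) and WNT10A -0.177 (limma voom, from 0.27), and in Oxy186 against Oxy210 WNT7A was 0.00192 (limma voom). In r1 to r4, with GC offsets, WNT3 was 0.170 and WNT2B -0.0793, and with the block as well WNT3 was 0.261, WNT2B -0.0598 and WNT7B 0.135. WNT4 was -0.268 with the block alone. Leaving out 1 of r1 to r4 gave -0.0889 to 0.227 for WNT2B and -0.0557 to 0.270 for WNT4.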
